A study of Rattus norvegicus with 10 samples.

Results

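The collagens are the family of triple-helical chains that make up much of the extracellular matrix, and 36 collagen genes were measured among the 18166 named genes of a rat testis array study. They were chosen by name alone, as every gene whose only symbol in the platform annotation was Col, a number, a and a number, with the brightest probe set kept where a gene had more than 1. A further 8 collagen symbols of the RefSeq table, Col4a6, Col6a1, Col6a4, Col6a5, Col9a3, Col22a1, Col25a1 and Col28a1, had no probe set of their own and were not analysed here. By class, the 36 genes were 11 fibrillar, 5 type IV, 3 type VI, 7 fibril-associated, 2 multiplexin, 3 transmembrane and 3 type VIII and X chains, with Col7a1 and Col26a1 besides.

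Collagen chains assemble in threes into a triple helix. Fibrillar collagens form the cables of the interstitium, type IV collagen forms the sheet-like network of basement membranes, type VI collagen forms beaded filaments beside it, and the multiplexins XV and XVIII hang on basement membranes and carry endostatin-like ends. In the testis a basement membrane and a layer of peritubular myoid cells surround each seminiferous tubule, and both Sertoli and myoid cells are known to make its collagens.

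Whole testes of Zucker rats, a strain in which the fa allele of the leptin receptor causes obesity, were measured on Affymetrix arrays, 1 per sample. Obese rats gave testes of normal development (4 arrays, called normal obese) and under-developed testes (4 arrays), lean rats gave testes of normal development (2 arrays, called normal lean), and all 10 samples came from sexually mature rats of 14 weeks. No drug or diet was named for any group. The labels of the lean animals carry the same fa/fa model and the same treatment text as those of the obese animals, which leaves the lean genotype uncertain. The labels speak of biological replicates without saying that each testis had its own animal, and p-values therefore measure the spread between these samples only. Values are log2 units per probe set, in which a difference of 1 is 2-fold, and the number of arrays limits their precision. Array medians over all probe sets ran from 6.14 to 6.38. The table gives no detection call, so whether the dimmest collagen probe sets stood above background was not tested, and levels are compared only within a gene.

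The under-developed arrays were not alike. Replicates 1, 2 and 3 differed widely from the normal arrays and replicate 4 did not. Against the normal obese mean, the mean difference of 8 spermatid markers (Tnp1, Prm1, Acr and others) was -2.84, -0.71, -4.22 and -0.05 in replicates 1 to 4. Each result is therefore given per array, and the fit is given with all arrays and without under-developed replicate 4, a choice made after the values were seen. These are bulk samples, so fewer cells of a type and less RNA per cell cannot be told apart. The markers of the testis itself were present, with the spermatid gene Tnp1 at 13.4 and the Sertoli gene Cldn11 at 9.36 log2 units on average in the normal obese arrays.

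Across the 36 genes, the chains of basement membranes and of types I, III and VI were higher in under-developed replicates 1 to 3, most cartilage and fibril-associated chains differed little, and Col12a1 and Col26a1 were lower. At least 2-fold above the normal obese mean were 7 collagens in replicate 1, 6 in replicate 2, 14 in replicate 3 and 0 in replicate 4. Over all genes, 15.5%, 7.56%, 19.2% and 0.0385% were past that fold upward in replicates 1 to 4, and 15.6%, 6.18%, 16.8% and 0.0055% downward. For the collagens the shares higher were 19.4%, 16.7% and 38.9% in replicates 1 to 3, and no collagen was 2-fold lower in any of the 4 arrays. Under-developed replicates 1 to 3 all lay above the 6 normal arrays for 15 collagens and below them for 2, against 28.7% and 26.7% of all genes. The collagen shares were 41.7% above and 5.6% below.

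**Figure D1:**
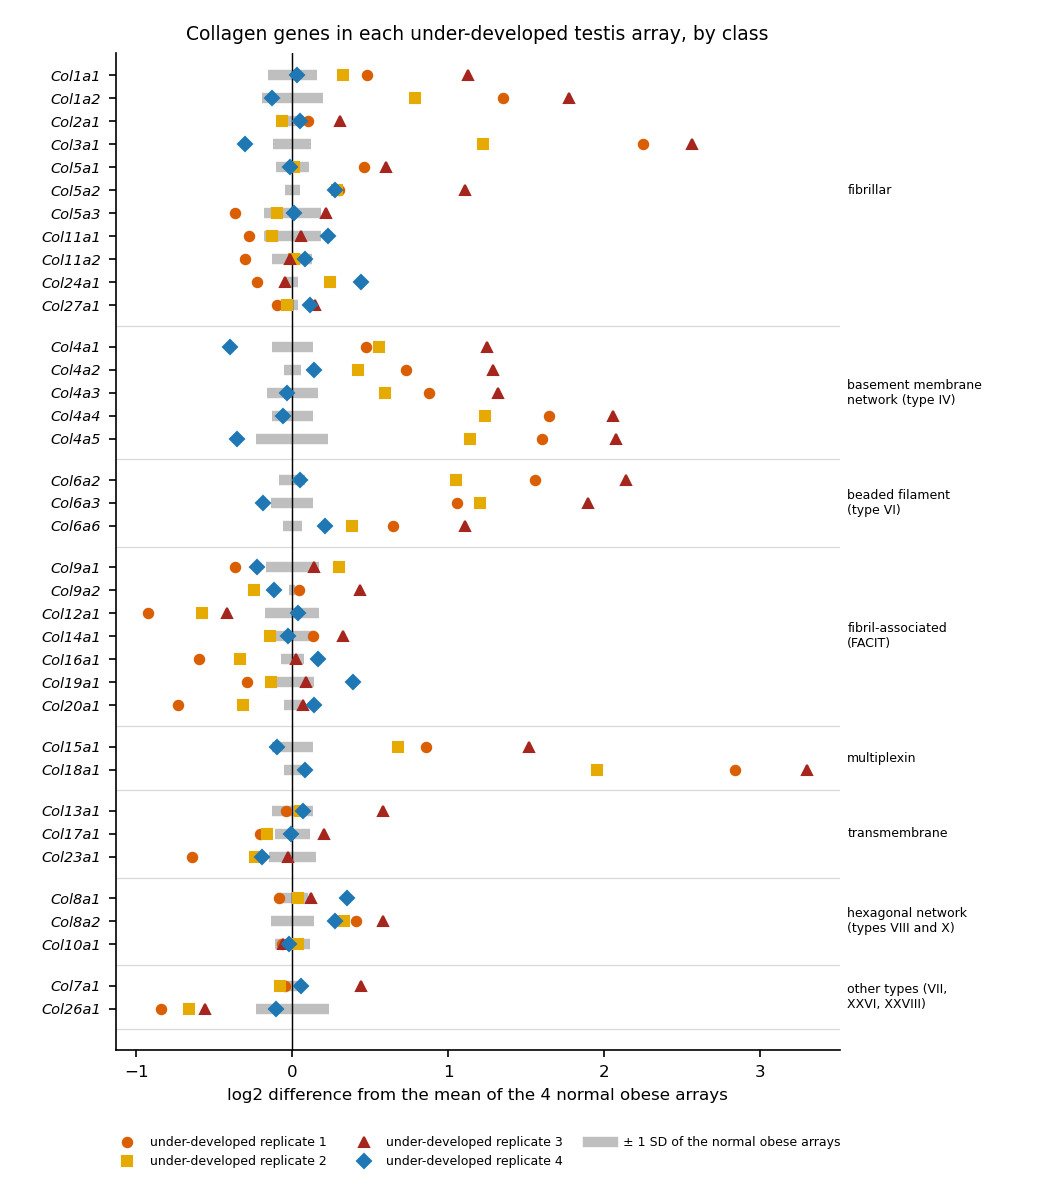
Log2 difference (horizontal axis) between each under-developed array and the normal obese mean for the 36 collagen genes, grouped by class. Each symbol is 1 array and the grey bar is 1 SD of the normal obese arrays to each side. Replicates 1 to 3 lie to the right for the type IV, type VI and multiplexin chains, up to 3.30 for Col18a1, and the blue diamonds of replicate 4 stay within 0.44 of 0.

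In the fit of all 10 arrays no collagen passed limma's test at an adjusted p of 0.05 for under-developed against normal obese testes, and 0% of all genes did. At an unadjusted p below 0.05, 13 collagens were higher and 2 lower (36.1% and 5.6%), against 24.4% and 22.3% of all genes. Without under-developed replicate 4 the test called 15 collagens higher and 2 lower, against 29.6% and 26.4% of all genes. The 15 were Col1a1, Col1a2, Col3a1, Col5a2, the 5 type IV chains, the 3 type VI chains, Col15a1, Col18a1 and Col8a2, and the 2 were Col12a1 and Col26a1. The median difference over the 36 genes was 0.10 with all arrays and 0.11 without replicate 4, against 0.06 and 0.07 over all genes. These counts depend on the scaling between arrays that is used. With arrays centred on their median, the fit without replicate 4 called 14 collagens higher and 2 lower, and with quantile normalization 13 and 2. With arrays centred on 53 ribosomal protein genes the fit without replicate 4 called 7 collagens higher and 21 lower. With arrays centred on 14 Sertoli genes it called 2 higher and 29 lower. The shares of all genes called under these scalings are not given here, so these counts are not read as a result about the collagens. Ribosomal and Sertoli centring moved the median over all genes, in the fit of all arrays, from 0.06 to -0.44 and -1.03. They moved the collagen median to -0.39 and -0.99. The 14 Sertoli genes themselves averaged 1.56, 1.13 and 1.70 above the normal obese mean in replicates 1 to 3. Sertoli centring therefore turns a gene that rose by less than they did to below 0.

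The largest difference was that of Col18a1, which encodes the multiplexin whose C-terminal end is endostatin. The 4 normal obese arrays read 6.57, 6.62, 6.58 and 6.69 and the lean arrays 6.70 and 6.58. Under-developed replicates 1 to 4 read 9.46, 8.57, 9.92 and 6.69. The first 3 lay far above every normal array, 7.16-fold, 3.87-fold and 9.87-fold above the normal obese mean, and replicate 4 lay among the normal arrays. The normal obese mean was 6.62 ± 0.05 (SD, n = 4) and the fitted difference was 2.04 (SE 0.59, adjusted p = 0.0702 in limma) with all arrays and 2.70 (SE 0.27, adjusted p = 1.12e-04) without replicate 4. Col18a1 stayed higher under ribosomal and Sertoli centring, by 1.99 and 1.23 without replicate 4. Col15a1, the other multiplexin, a chain found just outside basement membranes, read 5.67 to 5.97 in the 6 normal arrays and 6.65, 6.47, 7.31 and 5.69 in under-developed replicates 1 to 4. Its fitted difference was 0.74 with all arrays (adjusted p = 0.0813 in limma) and 1.02 without replicate 4 (adjusted p = 0.002), and without replicate 4 it was -0.44 with Sertoli centring.

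All 5 measured type IV chains were higher in under-developed replicates 1 to 3 than in any normal array. These chains are encoded in head-to-head pairs, Col4a1 with Col4a2 and Col4a3 with Col4a4, while Col4a5 lies on the X chromosome. The chains of the first pair make the network found in nearly all basement membranes, and those of the second pair join with the Col4a5 chain in a more cross-linked network of few tissues, the kidney glomerulus and the testis among them. RefSeq promoter windows of assembly GRCr8, 250 bases before the start site and 50 from it on, were matched for 30 of the 36 collagens and are shown for both pairs, to show how far the promoters of partner chains coincide, and for Col18a1. Capitals mark matches on either strand to the CCAAT box, spelled by its name, to the GC box, spelled GGGCGG, and to the TATA box, spelled TATAAA. Each sequence runs from 5′ to 3′ along its own gene:
Col4a1 (chr16:84885347-84885646, plus strand): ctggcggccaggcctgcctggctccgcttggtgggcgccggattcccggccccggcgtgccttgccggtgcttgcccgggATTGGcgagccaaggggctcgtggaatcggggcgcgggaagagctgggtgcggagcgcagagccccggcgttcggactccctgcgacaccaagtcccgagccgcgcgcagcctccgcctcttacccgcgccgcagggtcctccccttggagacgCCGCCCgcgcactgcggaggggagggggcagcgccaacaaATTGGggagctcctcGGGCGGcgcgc
Col4a2 (chr16:84885471-84885770, minus strand): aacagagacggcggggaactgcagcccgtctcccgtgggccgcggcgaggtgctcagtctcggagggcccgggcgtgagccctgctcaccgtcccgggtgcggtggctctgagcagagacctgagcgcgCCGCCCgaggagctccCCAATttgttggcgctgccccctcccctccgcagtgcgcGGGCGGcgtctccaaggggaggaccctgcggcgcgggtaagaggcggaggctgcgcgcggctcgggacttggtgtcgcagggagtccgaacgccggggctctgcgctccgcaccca
Col4a3 (chr9:91323740-91324039, plus strand): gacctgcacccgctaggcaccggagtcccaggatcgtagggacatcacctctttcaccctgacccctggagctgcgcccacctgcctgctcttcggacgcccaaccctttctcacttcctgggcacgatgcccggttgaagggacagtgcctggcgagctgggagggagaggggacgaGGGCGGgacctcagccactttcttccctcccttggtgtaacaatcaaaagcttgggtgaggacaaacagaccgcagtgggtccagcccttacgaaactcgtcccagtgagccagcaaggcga
Col4a4 (chr9:91323528-91323827, minus strand): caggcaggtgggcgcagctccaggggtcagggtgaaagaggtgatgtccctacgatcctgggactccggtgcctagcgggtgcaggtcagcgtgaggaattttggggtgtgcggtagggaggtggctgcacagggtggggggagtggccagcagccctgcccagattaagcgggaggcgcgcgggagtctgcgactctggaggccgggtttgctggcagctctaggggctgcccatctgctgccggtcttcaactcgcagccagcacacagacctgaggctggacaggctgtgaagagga
Col18a1 (chr20:11473395-11473694, plus strand): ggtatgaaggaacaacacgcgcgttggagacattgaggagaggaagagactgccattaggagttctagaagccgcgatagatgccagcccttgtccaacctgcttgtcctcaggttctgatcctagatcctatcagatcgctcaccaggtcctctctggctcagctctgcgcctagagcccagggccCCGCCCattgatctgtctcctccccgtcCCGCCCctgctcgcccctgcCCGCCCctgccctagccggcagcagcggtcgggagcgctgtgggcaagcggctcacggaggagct
The start sites of Col4a1 and Col4a2 are 77 bases apart, so that their windows share 176 bases, read from opposite strands. Those of Col4a3 and Col4a4 are 413 bases apart and their windows share 88 bases. The GC box letters stood 2 times in the Col4a1 window and 2 times in that of Col4a2. These are the same 2 stretches of the shared bases, read from opposite strands, and count in both windows. The letters stood 1 time in the window of Col4a3, 0 times in that of Col4a4 and 3 times in that of Col18a1. Of the 30 collagen windows 18 held the GC box, against 33.1% of 33469 RefSeq windows of the same length. The CCAAT box stood in 26.7% of the collagen windows and 37.5% of all, and the TATA box in 13.3% and 14.2%. A match describes letters in these windows, not a site in use.

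Within the first pair the values were close to each other's in size of difference. Col4a1 read 6.93, 7.01, 7.71 and 6.05 in under-developed replicates 1 to 4 and 6.31 to 6.62 in the 6 normal arrays. Col4a2 read 7.22, 6.91, 7.78 and 6.63 against 6.44 to 6.57. Replicates 1 to 3 lay above the normal range for both genes, and in replicate 4 Col4a1 lay below it and Col4a2 just above it. Without replicate 4 the fitted differences were 0.76 (SE 0.19, adjusted p = 0.0073 in limma) for Col4a1 and 0.81 (SE 0.18, adjusted p = 0.0049) for Col4a2. With all arrays they were 0.47 and 0.64 (adjusted p = 0.229 and 0.0703). No test compared one chain with another.

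The second pair differed more between its members. Col4a3 read 7.80, 7.52, 8.24 and 6.89 in under-developed replicates 1 to 4 and 6.73 to 7.08 in the normal arrays. Col4a4 read 9.01, 8.60, 9.42 and 7.30 against 7.11 to 7.55, and Col4a5 read 8.59, 8.12, 9.06 and 6.63 against 6.65 to 7.27. All 3 genes had the order replicate 3, 1, 2 and then 4, and replicate 4 was within or just below the normal range. Without replicate 4 the fitted differences were 0.93 (SE 0.17) for Col4a3, 1.65 (SE 0.19) for Col4a4 and 1.61 (SE 0.22) for Col4a5, with adjusted p-values in limma of 0.002, 1.80e-04 and 3.97e-04. With all arrays they were 0.69, 1.22 and 1.12 (adjusted p = 0.0746, 0.0702 and 0.0857). With Sertoli centring, and without replicate 4, Col4a1, Col4a2 and Col4a3 turned to -0.70, -0.65 and -0.53, while Col4a4 and Col4a5 stayed above 0 at 0.18 and 0.14 and were not called.

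**Figure D2:**
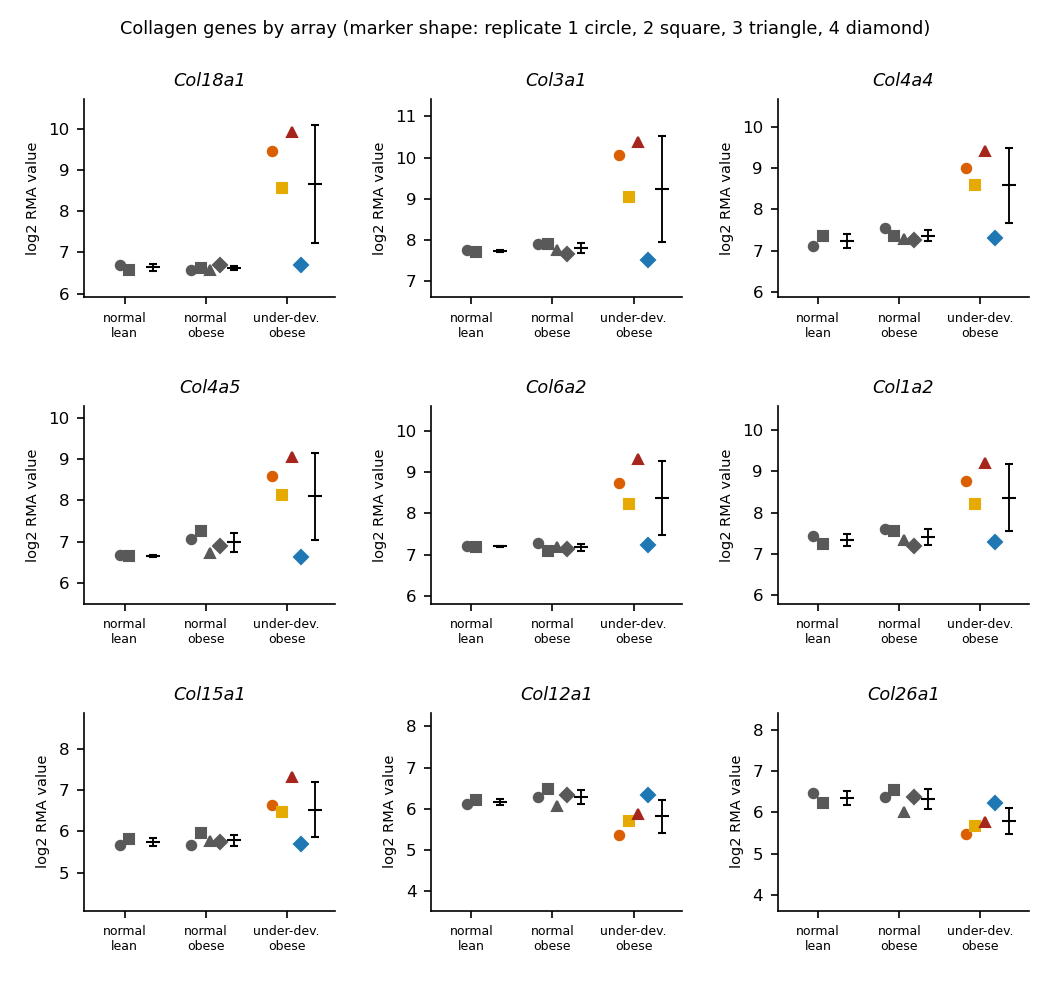
Log2 RMA values of 9 collagen genes in every array (vertical axes of equal length), by group, with the mean and 1 SD beside each group. In the first 7 panels under-developed replicates 1 to 3 lie above all normal arrays and replicate 4 lies within or just below them, as for Col3a1 at 7.51; for Col12a1 and Col26a1 replicates 1 to 3 lie below them.

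The 3 measured type VI chains, which form the microfibrils that link cells to the surrounding matrix, were all higher in replicates 1 to 3. Col6a2 read 8.73, 8.22, 9.32 and 7.22 in under-developed replicates 1 to 4 against 7.09 to 7.29 in the 6 normal arrays. Col6a3 read 7.45, 7.60, 8.29 and 6.21 against 6.23 to 6.54, and Col6a6 read 6.24, 5.98, 6.70 and 5.80 against 5.48 to 5.68. For Col6a6 all 4 under-developed arrays lay above every normal array, whereas for Col6a3 replicate 4 was the lowest of all 10 arrays. Without replicate 4 the fitted differences were 1.58, 1.39 and 0.71 (SE 0.22, 0.19 and 0.16; adjusted p in limma 4.58e-04, 4.69e-04 and 0.0047). With all arrays they were 1.20, 0.99 and 0.59 (adjusted p = 0.0702, 0.0746 and 0.0702). With Sertoli centring and without replicate 4, Col6a2 stayed above 0 at 0.12 and the other two turned to -0.08 and -0.75.

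Among the 11 fibrillar chains, those of types I and III carried most of the difference. Col3a1, the single chain of type III collagen, which is abundant in soft, distensible tissues, read 10.06, 9.03, 10.38 and 7.51 in under-developed replicates 1 to 4. The normal obese arrays read 7.91, 7.91, 7.75 and 7.67 and the lean arrays 7.76 and 7.72. Replicates 1 to 3 were 4.75-fold, 2.33-fold and 5.92-fold above the normal obese mean of 7.81 ± 0.12 (SD, n = 4), and replicate 4 lay below all 6 normal arrays. The fitted difference was 1.43 (SE 0.53, adjusted p = 0.0756 in limma) with all arrays and 2.01 (SE 0.27, adjusted p = 4.31e-04) without replicate 4, and it stayed called, at 1.31 and 0.55, with ribosomal and with Sertoli centring. Col3a1 and Col18a1 were the only collagens called higher without replicate 4 under all 4 other scalings tried, which were median, ribosomal and Sertoli centring and quantile normalization.

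The type I chains, the main protein of scar, bone and tendon, differed less. Col1a2 read 8.77, 8.21, 9.19 and 7.29 in under-developed replicates 1 to 4 against 7.18 to 7.60 in the normal arrays. Col1a1 read 7.64, 7.49, 8.29 and 7.19 against 6.83 to 7.35. Replicates 1 to 3 lay above all normal arrays for both, and replicate 4 lay within them. Without replicate 4 the fitted difference was 1.30 (SE 0.22, adjusted p = 0.0012 in limma) for Col1a2 and 0.64 (SE 0.20, adjusted p = 0.0208) for Col1a1, and with Sertoli centring these became -0.16 and -0.82. With quantile normalization Col1a1 no longer passed (adjusted p = 0.0584). Both chains belong to the same heterotrimer, 2 copies of the Col1a1 chain with 1 of the Col1a2 chain.

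Type V chains, which sit inside type I fibrils and set their width, were less uniform. Col5a2 read 6.51, 6.50, 7.33 and 6.49 in under-developed replicates 1 to 4 against 6.16 to 6.26 in the normal obese arrays and 6.42 and 6.30 in the lean arrays. All 4 under-developed arrays thus lay above all 6 normal arrays, 3 of them narrowly and replicate 3 by far. Its fitted difference was 0.49 with all arrays (adjusted p = 0.0785 in limma) and 0.56 without replicate 4 (adjusted p = 0.0336), and without replicate 4 it no longer passed when arrays were centred on their median (adjusted p = 0.0836) or normalized again by quantiles (adjusted p = 0.0808). Col5a1 read 6.96, 6.51, 7.10 and 6.49 against 6.33 to 6.59, and on the deposited scale it passed against the lean arrays without replicate 4, by 0.48 (adjusted p = 0.047 in limma). Against normal obese arrays without replicate 4 it differed by 0.36 (adjusted p = 0.0663), and it was called lower with ribosomal centring, at -0.35 (adjusted p = 0.0194), and with Sertoli centring, at -1.11 (adjusted p = 1.99e-05). A dimmer probe set of Col5a1 differed from the normal obese mean by 0.02, 0.11, 0.33 and 0.07 in the 4 under-developed arrays, against 0.46, 0.01, 0.60 and -0.01 for the one used. The other 6 fibrillar genes, which include the cartilage chains Col2a1, Col11a1 and Col11a2, differed by at most 0.44 in any under-developed array. Their extremes were Col24a1, at 0.44 in replicate 4, and Col5a3, at -0.37 in replicate 1.

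Fibril-associated chains, which bind to the surface of fibrils, included none that was higher by the test and 1 that was lower. Col12a1, found on type I fibrils of dense connective tissue, read 5.37, 5.72, 5.88 and 6.33 in under-developed replicates 1 to 4 against 6.07 to 6.49 in the normal arrays. The first 3 lay below all normal arrays and the fourth among them. Its fitted difference was -0.47 (SE 0.19, adjusted p = 0.0923 in limma) with all arrays and -0.64 (SE 0.15, adjusted p = 0.0054) without replicate 4. Of the other 6, Col20a1 and Col16a1 had the largest differences, -0.73 and -0.60, both in replicate 1, where replicate 3 was at 0.07 and 0.02. Class medians in replicates 1 to 4 were -0.37, -0.25, 0.09 and 0.04.

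Col26a1, a short collagen-like chain described in testis and ovary, was the other gene that was lower. It read 5.49, 5.66, 5.76 and 6.22 in under-developed replicates 1 to 4, 6.38, 6.54, 5.997 and 6.38 in the normal obese arrays and 6.46 and 6.23 in the lean arrays. As for Col12a1, replicates 1 to 3 lay below all normal arrays. The fitted difference was -0.54 (SE 0.18, adjusted p = 0.0702 in limma) with all arrays and -0.69 (SE 0.15, adjusted p = 0.0038) without replicate 4. Col26a1 and Col12a1 were called lower without replicate 4 under all 5 scalings, that of the deposited values included.

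Of the remaining classes, Col8a2, a chain of the hexagonal network known from the cornea, was the only called gene. It read 7.41, 7.34, 7.58 and 7.28 in under-developed replicates 1 to 4 against 6.84 to 7.13 in the normal obese arrays and 7.25 and 7.11 in the lean arrays. All 4 under-developed arrays lay above all 6 normal arrays, by a small margin in replicate 4. The fitted difference was 0.40 (SE 0.11, adjusted p = 0.0702 in limma) with all arrays and 0.44 (adjusted p = 0.01) without replicate 4. With all arrays and ribosomal or Sertoli centring it was -0.10 or -0.70. In no under-developed array did Col8a1 or Col10a1 differ by more than 0.35, nor Col7a1, the anchoring fibril chain of skin, by more than 0.44. The transmembrane chains Col23a1 and Col13a1 reached -0.64 in replicate 1 and 0.58 in replicate 3 and were not called.

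Array by array, replicate 3 held the highest value of replicates 1 to 3 for 32 of 36 collagens (88.9%), against 49.3% of all genes. The order replicate 3, 1, 2 and 4 from the highest down held for 14 collagens (38.9%), against 20.9% of all genes. Medians over the 36 genes were 0.07, 0.04, 0.44 and 0.03 in replicates 1 to 4, and those over all genes were 0.03, -0.02, 0.17 and 0.00. Replicate 4 lay above all 6 normal arrays for 9 collagens and below them for 7, against 17.8% and 18.6% of all genes. Among the 9 were Col5a2, Col4a2, Col6a6 and Col8a2, and among the 7 were Col3a1, Col4a1, Col4a5 and Col6a3. With all 4 under-developed arrays counted, 5 collagens lay above all 4 normal obese arrays without overlap (Col5a2, Col4a2, Col6a6, Col18a1 and Col8a2) and 0 lay below, against 7.44% and 10.4% of all genes. For Col18a1 that margin was the last digit, 6.694 in replicate 4 against 6.6895 in the highest normal obese array.

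Normally developed testes were also compared between obese and lean rats. No collagen passed limma's test at the adjusted threshold, 0% of all genes did, and at an unadjusted p below 0.05 no collagen passed either, against 0.44% of all genes. The 36 differences of normal obese over normal lean ran from -0.28 for Col24a1 to 0.32 for Col4a5, with a median of -0.01, 17 above 0 and 19 below. For Col24a1 the lean arrays read 6.11 and 6.12 and the normal obese arrays 5.78 to 5.86. For Col4a5 the lean arrays read 6.68 and 6.65 and the normal obese arrays 6.73 to 7.27. Both genes are named only as the extremes of the 36. The fit uses a single spread per gene over all 10 arrays, so the wide spread of the under-developed arrays enters this comparison. For Col24a1 the SE was 0.18, beside SDs of 0.038 in the normal obese and 0.009 in the lean arrays. For Col18a1 it was 0.72, beside SDs of 0.05 and 0.09. For this reason, and with 2 lean arrays, a difference that misses the threshold does not show that the groups were alike.

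Under-developed testes were also set against the lean arrays, a comparison that shares its under-developed arrays with the one above. No collagen and 0% of all genes passed limma's test with all arrays, and at an unadjusted p below 0.05, 10 collagens were higher and 1 lower, against 17.5% and 14.3% of all genes. Without under-developed replicate 4, 14 were higher and 2 lower at the adjusted threshold, against 25.6% and 23.2%. Col18a1 differed by 2.68, Col3a1 by 2.08, Col4a5 by 1.93 and Col4a4 by 1.78 in that fit, Col12a1 by -0.51 and Col26a1 by -0.71. Col8a2, at 0.26 (adjusted p = 0.144), and Col5a2, at 0.42 (adjusted p = 0.169), did not pass against the lean arrays.

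Genes that make, export, process, cross-link and bind collagen were counted as a list of 45, of which 40 were measured and Plod3, Mia2, Mia3, Pcolce2 and Gp6 were not analysed here. In the fit of all arrays none passed limma's adjusted threshold, and at an unadjusted p below 0.05, 24 were higher and 4 lower, against 24.4% and 22.3% of all genes. Without replicate 4, 26 were higher and 5 lower at an adjusted p of 0.05, against 29.6% and 26.4% of all genes. With median centring these became 24 and 6, and with quantile normalization 26 and 6. With ribosomal centring they became 18 and 13, and with Sertoli centring 12 and 22. The shares of all genes called under these scalings are not given here. The median difference of the 40 genes was 0.58 with all arrays and 0.78 without replicate 4.

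Of the 9 genes listed as prolyl hydroxylases and their partner proteins, 8 were called higher without replicate 4. The hydroxyproline made by prolyl 4-hydroxylase keeps the triple helix stable. P4hb, the shared subunit of prolyl 4-hydroxylase and a disulfide isomerase, read 11.92, 11.20, 11.85 and 9.38 in under-developed replicates 1 to 4 against 9.14 to 9.42 in the normal arrays. Replicates 1 to 3 lay more than 1.5 log2 units above every normal array and replicate 4 within them. P3h4 and P3h2, of the prolyl 3-hydroxylase family, differed from the normal obese mean by 3.15, 1.73, 2.42 and -0.26 and by 2.44, 1.54, 2.73 and -0.06. Without replicate 4 the fitted differences of P4hb, P3h4 and P3h2 were 2.31, 2.43 and 2.24. P4ha3 was the gene not called. Its normal obese values were 7.77, 5.66, 5.41 and 5.48 and under-developed replicate 4 read 8.10, so that 1 array of each group stood apart.

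The lysyl hydroxylase Plod2, which prepares the lysines of the telopeptides for cross-linking, read 9.28, 8.74, 9.97 and 6.47 in under-developed replicates 1 to 4 against 6.22 to 6.69 in the normal arrays. All 4 measured genes of its role, with Plod1, Colgalt1 and Colgalt2, were called higher without replicate 4, by 2.74, 0.77, 0.99 and 0.46. Among chaperones and export factors 4 of 5 were higher and 1 lower. Fkbp10, a prolyl isomerase of the endoplasmic reticulum, was higher by 2.62 without replicate 4, and Sec24d, a coat protein of the vesicles that carry procollagen, by 2.12. Serpinh1, the collagen chaperone HSP47, was higher by 2.00, and read 9.73, 9.19, 9.86 and 7.38 against 7.50 to 7.68. Sec23a, the partner of Sec24 proteins in that coat, was lower by 0.97 and read 9.68, 9.60, 9.43 and 10.46 against 10.43 to 10.66.

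**Figure D3:**
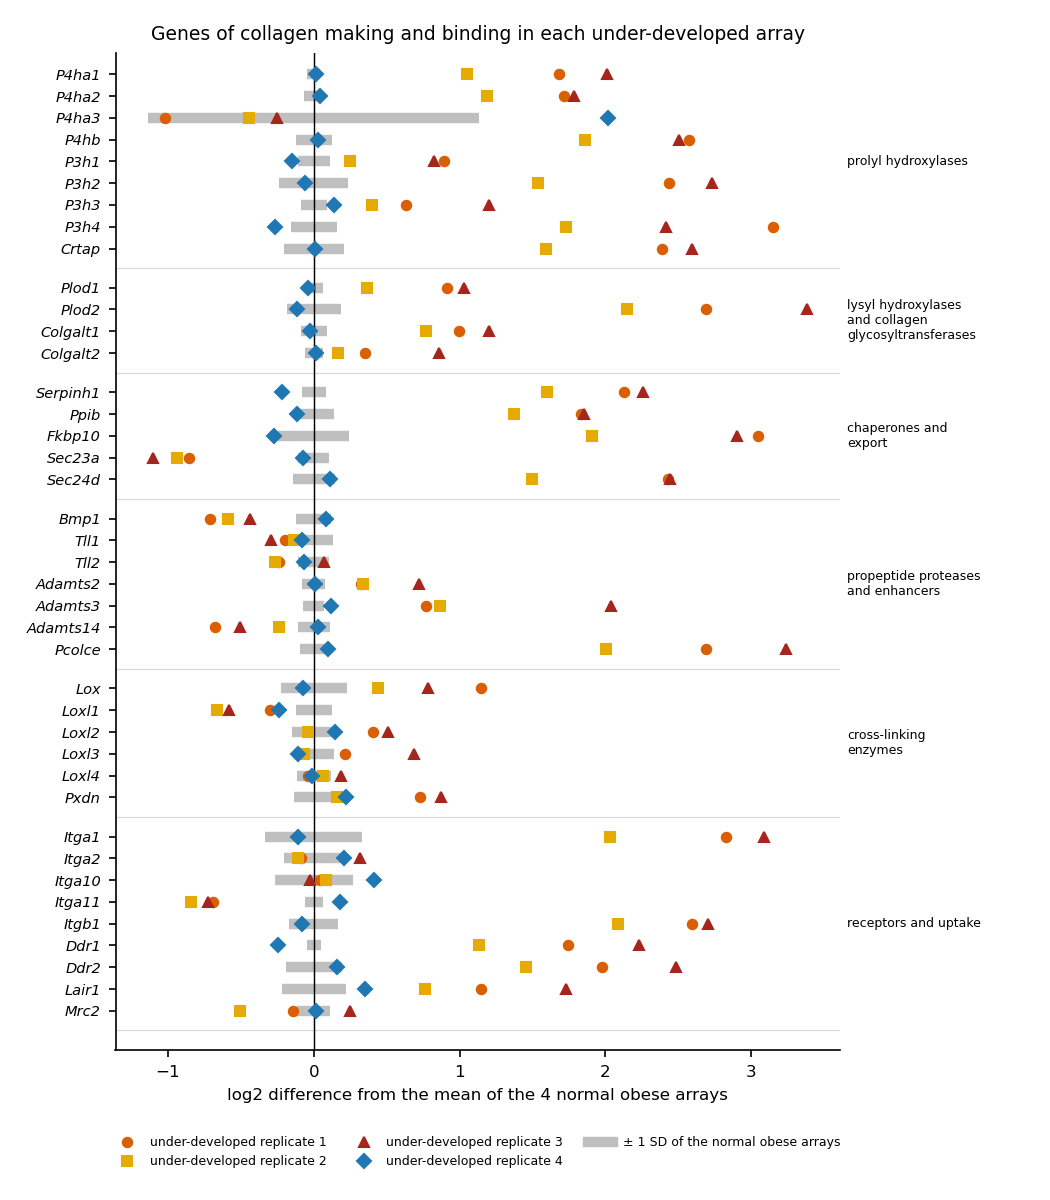
Log2 difference (horizontal axis) between each under-developed array and the normal obese mean for the 40 measured genes of collagen making and binding, by role. Symbols are arrays and the grey bar is 1 SD of the normal obese arrays to each side, 1.13 for P4ha3. Most enzymes and chaperones lie to the right in replicates 1 to 3, and Sec23a, Bmp1, Loxl1 and Itga11 lie to the left.

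Proteases that trim the propeptides did not differ in one direction. Without replicate 4, Pcolce, Adamts3 and Adamts2 were higher by 2.64, 1.22 and 0.46, whereas Bmp1, the C-propeptide protease itself, differed by -0.58 and Adamts14 by -0.48. Bmp1 read 6.62, 6.74, 6.90 and 7.42 in under-developed replicates 1 to 4 against 7.22 to 7.50 in the normal arrays. Pcolce, the enhancer that speeds up Bmp1, read 10.21, 9.52, 10.75 and 7.61 against 7.44 to 7.65. The protease and its enhancer thus lay on opposite sides of the normal arrays in replicates 1 to 3.

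Of 6 cross-linking enzymes, Lox, the lysyl oxidase of fibrils, and Pxdn, the peroxidase that joins type IV networks, were higher without replicate 4 by 0.79 and 0.59, and Loxl1 differed by -0.52. Loxl1 read 8.51, 8.15, 8.23 and 8.57 in under-developed replicates 1 to 4 against 8.67 to 8.97, so that all 4 arrays lay below every normal array. Among 9 receptors, Itga1, Itgb1, Ddr1, Ddr2 and Lair1 were higher without replicate 4, by 2.65, 2.46, 1.70, 1.97 and 1.21, and Itga11 differed by -0.75. Itga1 and Itgb1 encode the subunits of a collagen-binding integrin, and Itga11 encodes the alpha subunit of another. Itga1 read 9.31, 8.52, 9.57 and 6.38 against 5.88 to 6.84, and Itga11 read 6.12, 5.97, 6.09 and 6.998 against 6.76 to 6.90. The receptors for the same ligand family thus lay on both sides of the normal arrays in replicates 1 to 3.

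Markers of the cell types that make collagen differed in the same arrays. The mean difference of 8 fibroblast markers was 1.62, 1.13, 1.83 and -0.04 in under-developed replicates 1 to 4. That of 6 myoid and smooth muscle markers was 1.09, 0.84, 1.75 and -0.21, and that of 14 Sertoli markers 1.56, 1.13, 1.70 and -0.01. Actg2 of the myoid list differed by 0.02, 0.14, 0.74 and -0.60, and Acta2 and Cnn1 of that list were not analysed here. Amh of the Sertoli list lay on the other side, at -0.35, -0.32, -0.17 and -0.22. Leydig markers gave 1.40, 0.77, 1.47 and -0.32, endothelial markers 1.07, 0.71, 1.15 and 0.00, and macrophage markers 2.12, 1.30, 1.99 and -0.04, although Aif1 of that list lay on the other side at -1.25, -0.50, -2.01 and -0.08. Flt1 of the endothelial list was at 0.04, -0.16, -0.50 and -0.03, and Cyp11a1 of the Leydig list at 0.62, 0.12, -0.01 and -0.80. Spermatocyte markers were at -2.46, -0.68, -3.80 and 0.00. The part of these cell types in the collagen differences was not tested. Within the fibroblast list Dcn, Pdgfra and Fap differed most in replicate 1, by 3.04, 2.75 and 2.55, and Thy1 and Pi16 differed by 0.28 and 0.48 there. Postn, a gene of activated fibroblasts, differed by 0.06, -0.02, 0.63 and 0.12 in replicates 1 to 4. Markers of tissues that might have been dissected along were near 0 in all 4 arrays, with epididymis and rete duct means from -0.24 to 0.09 and chondrocyte means from -0.08 to 0.18. Of 5 keratinocyte and 5 red blood cell markers 2 and 1 were measured. Adipocyte markers averaged 0.32, 0.14, 0.72 and -0.05, with Lpl at 2.13, 1.13, 3.59 and -0.32 and Adipoq at -0.45, -0.24, -0.51 and 0.13.

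**Figure D4:**
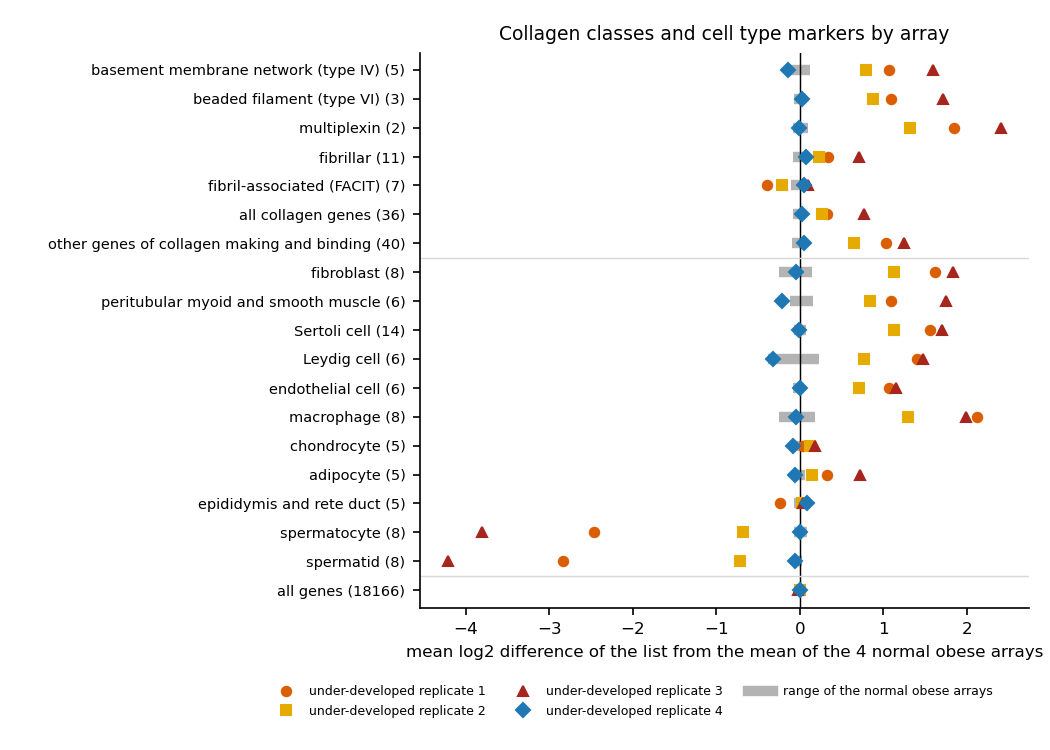
List mean of the log2 difference to the normal obese mean (horizontal axis) for collagen classes, genes of collagen making and binding, and cell type marker lists, with the number of genes measured in brackets. Symbols are under-developed arrays and the grey bar spans the list's means in the 4 normal obese arrays. Type IV, type VI and multiplexin means lie to the right in replicates 1 to 3 with the somatic cell markers, and the germ cell markers lie to the left, down to -4.22 in replicate 3.

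In replicates 1 and 3 the type IV chains averaged 1.07 and 1.60, the type VI chains 1.09 and 1.72 and the fibrillar chains 0.33 and 0.71. In the same arrays the myoid and smooth muscle list averaged 1.09 and 1.75, the fibroblast list 1.62 and 1.83 and the Sertoli list 1.56 and 1.70. The genes of collagen making and binding averaged 1.04, 0.65, 1.25 and 0.05 in replicates 1 to 4, beside 0.32, 0.27, 0.77 and 0.02 for the 36 collagens. The difference between these lists was not tested.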

How the data were processed

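Gene expression in rat testes was measured on 10 arrays. RNA was taken with Trizol and labelled with biotin by the WT PLUS kit, per the labels' protocols. The deposited values are log2 levels of each probe set that the authors made with RMA, as the submitters' processing notes say, with settings, version and genome build not given in the sources used here. RMA equalises arrays on the assumption that most genes are alike, so altered cell make-up of a tissue shifts other genes. Scanner files, slides and scan dates were not used here, so no batch could be examined.

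Of 36685 probe sets, 18511 carried 1 symbol, 575 several and 17599 were unnamed here. Of the single-symbol probe sets 18394 matched RefSeq (GRCr8) by gene number and took its symbol. The probe set with the highest mean was kept where a gene had more than 1 (291 genes), with no filter on dim values. Groups came from the titles. Differences were fitted with limma 3.58.1 in R 4.3.3 (lmFit, eBayes) on all 10 arrays with a mean per group, two-sided, and adjusted by Benjamini-Hochberg over 18166 genes at 0.05. The fit was tested on simulated data. These had the spread of the normal arrays in every group and the same change in all arrays of a group. The under-developed arrays spread more widely and unequally, so that test does not cover their case. Promoter windows were searched, and tables and plots made, with Python 3.11.15, numpy 2.4.6, pandas 2.3.3 and matplotlib 3.10.9.

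The collagen genes, the classes, the list of 45 genes and the marker lists were chosen with earlier results of these data known, and get no test as lists. Values per array are given for collagens at least 2-fold from the normal obese mean in 2 under-developed arrays, for types I, III, IV and VI, and for those called in the fit of all arrays or a fit leaving out 1 array, 18 genes in all. Of the others the 2 most extreme of a class are named, and of the list of 45 up to 3 genes a role, chosen by the size of the fitted difference. P3h1, P3h3, P4ha1, P4ha2 and Crtap were counted only, and P4ha3, Colgalt2, Sec23a, Adamts2, Adamts14, Ddr1, Lair1 and Itga11 were named after their values were seen. Alternatives were median, ribosomal and Sertoli centring, quantile normalization, an offset of 50 before log2, dim filters at the 25th percentile and the median, the mean of probe sets, trend and robust moderation, array weights, a fit of 2 groups, a replicate block, and each array left out. Scalings without under-developed replicate 4 were added after seeing the data.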

Additional observations from a re-analysis of the deposited data

Results flagged for a closer look

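In under-developed replicate 3, Col5a2 stood apart from the other under-developed arrays. It read 7.33 there and 6.51, 6.50 and 6.49 in replicates 1, 2 and 4, so that the gap to the nearest of them made up 0.970 of the range of the group, above the critical value of Dixon's test for 4 arrays. The value was 2.16-fold above the normal obese mean. The 36 collagens in the normal obese and under-developed groups gave 72 groups of 4 arrays. Chance marks about 1 in 20 such groups, or 3.6 of 72, and 1 was marked.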

How the results depend on the processing

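The directions of the 18 collagens given per array were kept, in under-developed against normal obese testes, in each setting except ribosomal and Sertoli centring, and the dim filter at the median left 9 of them. With ribosomal centring the differences of Col1a1, Col5a1, Col5a2, Col4a1 and Col8a2 became -0.0076, -0.23, -0.0064, -0.027 and -0.10. With Sertoli centring those of Col1a1, Col1a2, Col5a1, Col5a2, Col4a1, Col4a2, Col4a3, Col6a3, Col6a6, Col15a1 and Col8a2 became -0.61, -0.15, -0.83, -0.61, -0.63, -0.45, -0.41, -0.10, -0.51, -0.36 and -0.70. Both centrings shift every gene of an array by the same amount, up in some arrays and down in others, and the median over all genes moved with them. The collagen median for under-developed against normal obese testes was -0.39 with ribosomal centring and -0.99 with Sertoli centring. With the dim filter at the median it was 0.95, over only the collagens that the filter left. Against lean testes these medians were -0.50, -1.05 and 1.03. For normal obese against lean testes the collagen median was -0.11 with ribosomal centring. The number of collagens called against normal obese testes was 22 with Sertoli centring and 21 with array weights, and from 0 to 17 when 1 array was left out, the 17 coming without under-developed replicate 4. Against lean testes it was 20 with array weights and from 0 to 16 when 1 array was left out, the 16 again without replicate 4. Without that array, the 15 higher and 2 lower collagens became 14 and 2 with median centring and 13 and 2 with quantile normalization. With ribosomal centring they became 7 and 21, and with Sertoli centring 2 and 29. The shares of all genes called with these scalings and with array weights are not given here. For array weights and the dim filter the cause was not tested, though the dim filter tests fewer genes.

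With a replicate block, 0 collagens were called and the collagen median was 0.10, and no other call changed. Same-numbered normal obese and under-developed arrays correlated in their deviations from the group means at 0.0771, 0.00692, 0.0237 and 0.26 for numbers 1 to 4. Whether the numbers pair the samples cannot be told from these values. The deviations of the under-developed arrays also hold the wide differences among those arrays. With so few arrays and no signal over background in the table, small differences of dim probe sets could not be resolved.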

Other observations

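The loci of the miR-29 family, microRNAs known to repress many collagen transcripts, were looked up after the collagen values had been seen. Their mature sequences in RefSeq (GRCr8) are shown because all 3 carry the seed, bases 2 to 8, given in capitals:
rno-miR-29a-3p: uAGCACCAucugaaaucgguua
rno-miR-29b-3p: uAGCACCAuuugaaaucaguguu
rno-miR-29c-3p: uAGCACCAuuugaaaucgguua
The array reads probe sets named for the loci, and whether they follow the mature microRNA is not known here. Mir29c read 5.23, 4.96, 5.33 and 5.20 in the normal obese arrays, 5.78 and 5.96 in the lean arrays and 5.82, 5.72, 6.51 and 5.76 in under-developed replicates 1 to 4. All 4 normal obese arrays were thus the lowest, and replicate 3 was the highest. Mir29b2 read 3.68 to 4.27 in the normal obese arrays, 4.76 and 4.14 in the lean arrays and 4.55, 4.48, 4.56 and 4.90 in the under-developed arrays. Mir29a was higher than the normal obese mean of 3.10 by 0.39, 0.37, 0.43 and 0.03 in replicates 1 to 4. Mir29b1 was higher than its mean of 2.70 by 0.38, 0.05, 0.09 and 0.05. The lean arrays read 3.38 and 3.19 for Mir29a and 2.91 and 2.61 for Mir29b1. Both loci lay near the lowest values of the arrays, which ran from 2.28 to 2.42. No test was run on these values.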
